A study of Mus musculus with 2 samples.

Results

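The 6 genes described here encode CXC chemokines of 1 gene cluster on mouse chromosome 5: Cxcl1, Cxcl2, Cxcl3, Cxcl5, Cxcl15 and Pf4. They were taken by symbol from the 27998 genes in the files, and each symbol matched 1 gene in both libraries. Their levels were measured in organoids, by cell class and by library, and the question followed was whether epithelial or stromal cells held their transcripts, with and without IL-1β. IL-1β is a cytokine that macrophages release in injured tissue.

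The organoids were grown from sorted, lineage-labeled alveolar type 2 (AT2) cells of tamoxifen-treated SPC-CreERT2;R26R-tdTomato mice on a C57BL/6 background, in which the surfactant protein C promoter drives the Cre recombinase and tdTomato marks the AT2 lineage. Both groups carried these alleles and both were grown in Matrigel together with cultured lung stromal cells, which had been depleted of endothelial, epithelial and hematopoietic cells. The control group received PBS and the other received IL-1β. The labels give no mouse ages, and the time in culture was given as 2 weeks in the labels and as longer in the study's figure legend. Each group is 1 library of droplet-based 3′ single-cell RNA sequencing, so no difference below has a replicate check and no p-value can be given. A difference between the libraries cannot be told apart from any other difference between these cultures. Intervals are 95% intervals that cover counting error only. They are exact, except those of an epithelial ratio over a stromal ratio, which are approximate.

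CXC chemokines are small secreted proteins that draw leukocytes along a gradient. Cxcl1, Cxcl2, Cxcl3 and Cxcl5 act through the receptor Cxcr2, the main chemokine receptor of neutrophils. Cxcl15, also called lungkine, is made by lung epithelium and is released into the airspaces, and Pf4 (platelet factor 4) is best known as a product of platelet granules. Transcription of the inflammatory members is classically driven by NF-κB downstream of the IL-1 receptor, and their mRNAs are short-lived because of AU-rich elements in the 3′UTR.

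All 6 genes lie on the plus strand of chromosome 5 (GRCm38, GENCODE vM21) within 147 kb. Cxcl5 (ENSMUSG00000029371) runs from 90759360 to 90761624 in 4 exons. It is followed by Pf4 (ENSMUSG00000029373) at 90772435 to 90773383 in 3 exons, Cxcl3 (ENSMUSG00000029379) at 90786103 to 90789600 and Cxcl15 (ENSMUSG00000029375) at 90794534 to 90803067. Cxcl1 (ENSMUSG00000029380) at 90891241 to 90893115 and Cxcl2 (ENSMUSG00000058427) at 90903871 to 90905938 close the cluster, and these last 4 genes have 4 exons each. The only other protein-coding gene inside this span, the platelet chemokine gene Ppbp, had 1 UMI (unique molecular identifier, 1 counted transcript) in each library. Cxcl2 and Cxcl3 were the only pair of members that shared 50-base stretches. In their main transcripts the 61 shared stretches lay at least 939 and 850 bases from the 3′ ends, the ends that 3′ libraries read.

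The stretches just upstream of the start sites are shown because they set the members apart from each other. Each is 100 bases of the RefSeq promoter window (GRCm38.p6, plus strand), ending just before the RefSeq start site, with the kB site or the TATAAA box in capitals. They cover chr5:90891145-90891244 for Cxcl1, chr5:90903799-90903898 for Cxcl2, chr5:90786001-90786100 for Cxcl3, chr5:90794434-90794533 for Cxcl15 and chr5:90772335-90772434 for Pf4.
Cxcl1: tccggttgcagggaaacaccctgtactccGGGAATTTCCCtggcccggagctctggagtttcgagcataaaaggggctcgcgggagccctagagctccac
Cxcl2: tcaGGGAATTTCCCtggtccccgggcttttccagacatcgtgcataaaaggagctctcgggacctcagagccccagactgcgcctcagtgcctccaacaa
Cxcl3: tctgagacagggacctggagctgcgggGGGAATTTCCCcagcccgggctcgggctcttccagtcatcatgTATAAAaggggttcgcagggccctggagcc
Cxcl15: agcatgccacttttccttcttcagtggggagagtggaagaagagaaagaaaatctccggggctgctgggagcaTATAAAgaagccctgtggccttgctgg
Pf4: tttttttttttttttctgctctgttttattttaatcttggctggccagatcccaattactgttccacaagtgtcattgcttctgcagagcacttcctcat

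A window of 300 bases (250 before the start and 50 after it) was found for 5 of the 6 members, all but Cxcl5. The kB consensus was searched on both strands. It was present in Cxcl1, Cxcl2 and Cxcl3 as the same 11 bases, GGGAATTTCCC, in which the matches on the 2 strands overlap. These started 71, 97 and 73 bases before the RefSeq start site. For Cxcl2 the printed stretch runs to 90903898, past the GENCODE gene start of 90903871 given above. Its distance of 97 bases therefore depends on the annotation. Cxcl15 and Pf4 held no match, and 4.51% of 32851 windows of the same length held one. The box TATAAA was found in Cxcl3 and Cxcl15 (13.6% of windows), the AP-1 motif TGANTCA in none of the 5 members (7.81%), and the C/EBP motif TTNNGNAA in Cxcl2 and Pf4 (40.7%). These matches describe letters only.

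The 3′UTRs also differed between the members. The longest annotated 3′UTR of each gene was taken. For Cxcl2 this is longer than the whole main transcript used above (1109 bases), so it belongs to another transcript of the gene. The AU-rich pentamer ATTTA occurred 7 times in the 592 bases of the Cxcl1 3′UTR, 11 times in 1494 bases for Cxcl2, 5 times in 645 bases for Cxcl3 and 5 times in 1111 bases for Cxcl5. It occurred 2 times in 1586 bases for Cxcl15 and 1 time in 123 bases for Pf4. The stricter nonamer TTATTTATT was present 2 times in Cxcl1, 4 times in Cxcl2 and 1 time in Cxcl3, and in none of the other members, whereas 7.57% of 21173 genes held it. The densest 30-base stretches of these 3 genes are shown with the pentamers in capitals.
Cxcl1: gagggtcctATTTATTTAtgtATTTATTTA
Cxcl2: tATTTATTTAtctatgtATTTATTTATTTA
Cxcl3: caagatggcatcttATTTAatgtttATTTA

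Depth came to 33965848 UMIs over 2101 barcodes for the control and 41220175 UMIs over 3066 barcodes for IL-1β. After filtering, 1284 epithelial and 797 stromal cells remained from the control library, and 2583 and 475 from the IL-1β library. Levels below are the UMIs of a gene summed over the cells of a class, scaled to 1000000 UMIs of those cells (CPM, counts per 1000000). Clusters were assigned to a lineage by 7 epithelial and 7 stromal markers, so the sums of these markers describe the split and do not check it. The 7 epithelial markers summed to 2007 and 2686 CPM in the epithelial cells of the control and IL-1β libraries. In the stromal cells they summed to 105.4 and 159 CPM. The 7 stromal markers summed to 9478 and 8843 CPM in stromal and to 995 and 639.9 CPM in epithelial cells. The libraries shared 11 barcode sequences. CPM is a share of a cell class's RNA, so fewer transcripts of a gene and more of other RNA cannot be told apart.

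In epithelial cells, Cxcl1, Cxcl2, Cxcl3, Cxcl5 and Pf4 were each at least 2-fold higher in the IL-1β library, and Cxcl15 was not. Since there is no replicate test, a 2-fold ratio stands in for a call, over genes with at least 20 UMIs in the cells compared. Among 13235 such genes, 8.47% were at least 2-fold higher in the IL-1β library and 6.11% in the control. The median log2 ratio of the 6 members was 2.04, against 0.06 for all genes. In the stromal cells, Cxcl1, Cxcl2, Cxcl3 and Pf4 were at least 2-fold higher (4 of 6 members), where 5.28% of 12843 genes were higher and 13.4% higher in the control. There the median log2 ratio was 1.54 for the members and −0.33 for all genes, so stromal ratios sit on a lower baseline than epithelial ones. An epithelial ratio over a stromal ratio is given below without adjustment for this. By these medians it would lie above 1 for a typical gene.

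**Figure D1:**
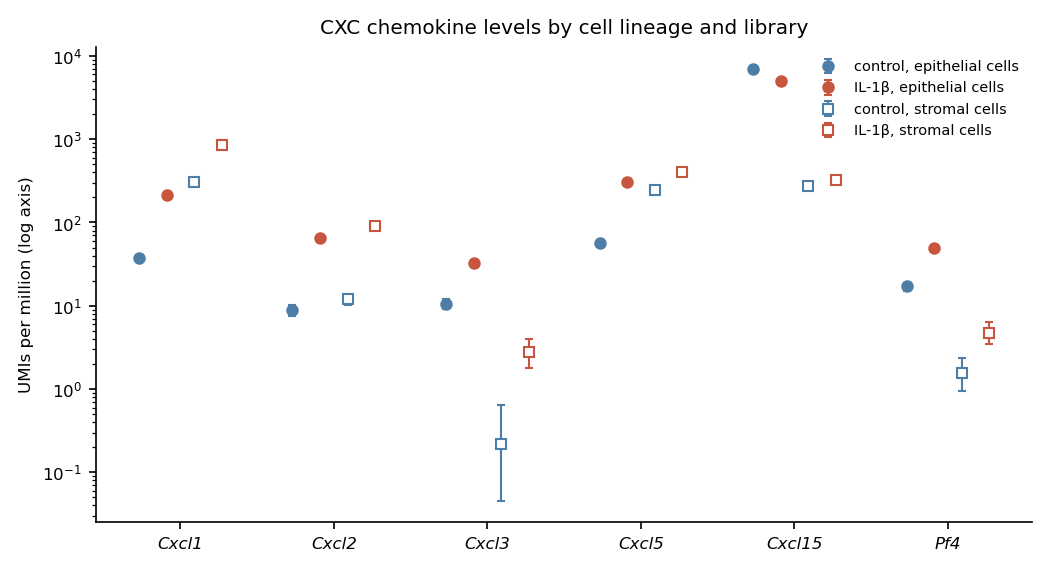
Level of each chemokine in CPM (log axis) in epithelial cells (filled circles) and stromal cells (open squares) of the control (blue) and IL-1β (red) libraries, with exact 95% counting intervals. Cxcl1 and Cxcl5 were lowest in control epithelial cells (37.7 and 56.4 CPM), whereas Cxcl15 stood far above the other members in epithelial cells of both libraries.

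Cxcl1, a chemokine that fibroblasts and epithelia make when stimulated, had 722 UMIs in control and 6570 UMIs in IL-1β epithelial cells. This is 37.7 and 211 CPM, a ratio of 5.59 (5.18 to 6.05). In stromal cells it had 4194 and 8036 UMIs, or 309 and 849.8 CPM, a ratio of 2.75 (2.65 to 2.86). Stromal cells therefore held the higher level in both libraries, by 8.18-fold (7.55 to 8.86) in the control and 4.02-fold (3.90 to 4.16) with IL-1β. The epithelial ratio was 2.03 (1.87 to 2.21) times the stromal ratio.

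Cxcl2, a close relative of Cxcl1, had 170 and 2051 UMIs in control and IL-1β epithelial cells, or 8.89 and 65.9 CPM, a ratio of 7.42 (6.34 to 8.72). The stromal values were 162 and 865 UMIs, or 11.9 and 91.5 CPM, a ratio of 7.67 (6.48 to 9.13). The epithelial and stromal levels stayed within 2-fold of each other in each library, with epithelial over stromal ratios of 0.746 (0.598 to 0.930) and 0.721 (0.665 to 0.781). The epithelial ratio over the stromal ratio was 0.967 with an interval of 0.768 to 1.22, which holds 1. This depended on the 39 cells that lay in clusters of the other library, described below. Without them the Cxcl2 ratios were 13.2 in epithelial and 7.59 in stromal cells. The first was then 1.74 (1.33 to 2.27) times the second, an interval above 1. Neither value is adjusted for the lower stromal baseline, so 1 does not stand for an equal change relative to all genes.

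Cxcl5, the neutrophil chemokine classically made by alveolar epithelium, had 1078 and 9531 UMIs in control and IL-1β epithelial cells. Its level was 56.4 and 306 CPM, a ratio of 5.44 (5.10 to 5.79). In stromal cells it had 3310 and 3773 UMIs, or 244 and 399 CPM, and the ratio of 1.64 (1.56 to 1.72) lay under 2-fold. With median-of-ratios scaling, which centers all genes, this stromal ratio was 2.06. Stromal cells held 4.32-fold (4.03 to 4.63) more Cxcl5 by CPM than epithelial cells in the control, whereas the levels differed by 1.303-fold (1.25 to 1.35) with IL-1β. The epithelial ratio was 3.32 (3.07 to 3.59) times the stromal ratio, the highest among the 6 members. Without the 39 cells that lay in clusters of the other library, described below, the Cxcl5 ratios were 16.0 in epithelial and 1.62 in stromal cells, and the first was 9.84 (8.77 to 11.04) times the second.

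Cxcl3, whose product also binds Cxcr2, was an epithelial transcript at a low level. It had 200 and 1006 UMIs in control and IL-1β epithelial cells, or 10.5 and 32.3 CPM, a ratio of 3.09 (2.65 to 3.62). Stromal cells had 3 and 26 UMIs, or 0.221 and 2.75 CPM. The stromal ratio of 12.5 has an interval of 3.82 to 64.3 and rests on these few counts.

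Pf4, the platelet factor, followed the same source. It had 326 and 1539 UMIs in control and IL-1β epithelial cells, or 17.0 and 49.5 CPM, a ratio of 2.90 (2.57 to 3.28). Stromal cells had 21 and 45 UMIs, or 1.55 and 4.76 CPM, a ratio of 3.08 (1.80 to 5.44). Of the 5 platelet and megakaryocyte markers, 3 had any UMI in the epithelial cells of each library, though not the same 3. Their summed levels were 2.61 and 2.92 CPM, and the platelet receptor gene Gp9 was at 0 in both libraries.

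Cxcl15 was the most abundant member. It had 133898 and 156008 UMIs in control and IL-1β epithelial cells, or 7000.2 and 5014 CPM, a ratio of 0.716 (0.711 to 0.721). Stromal cells had 3766 and 3097 UMIs, or 277 and 328 CPM, a ratio of 1.18 (1.13 to 1.24). Both ratios lay inside the 2-fold range, so Cxcl15 passed in neither lineage, and it was the only member without a 2-fold higher level in epithelial cells.

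Epithelial and stromal levels were then set side by side within each library. In the control, Cxcl3, Cxcl15 and Pf4 were at least 2-fold higher in epithelial cells (16.4% of 13394 genes were) and Cxcl1 and Cxcl5 in stromal cells (23.3% of genes). In the IL-1β library, Cxcl3, Cxcl15 and Pf4 were again on the epithelial side (23.8% of 13448 genes) and Cxcl1 alone on the stromal side (15.9%). The epithelial over stromal ratios of the first 3 genes were 47.4 (16.0 to 232), 25.3 (24.5 to 26.1) and 11.03 (7.09 to 18.1) in the control, and 11.8 (7.98 to 18.1), 15.3 (14.8 to 15.9) and 10.4 (7.73 to 14.3) with IL-1β.

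Counted as shares of all UMIs of a gene, epithelial cells held 14.7% of Cxcl1 (13.7 to 15.7) without and 45.0% (44.2 to 45.8) with IL-1β. For Cxcl5 the share was 24.6% (23.3 to 25.9) in the control and 71.6% (70.9 to 72.4) with IL-1β. For Cxcl2 it was 51.2% (45.7 to 56.7) and 70.3% (68.6 to 72.0). Cxcl3, Cxcl15 and Pf4 were at 93.9% to 98.5% in both libraries. Epithelial cells made up 61.7% of control and 84.5% of IL-1β cells and held 58.5% and 76.7% of all UMIs, so these shares also move with the number of cells recovered, which the CPM values above do not.

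**Figure D2:**
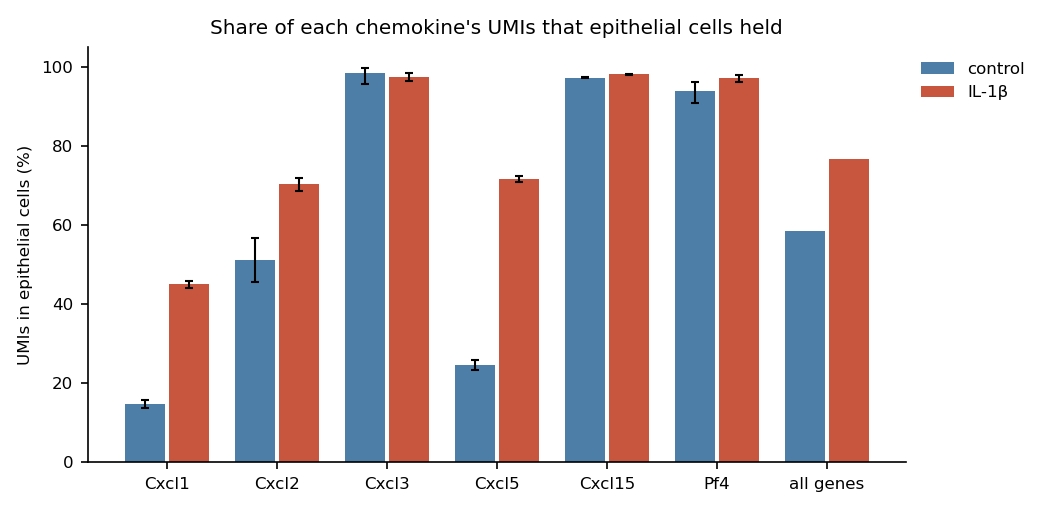
Percentage of each chemokine's UMIs that lay in epithelial cells, in the control (blue) and IL-1β (red) libraries, with exact 95% binomial intervals; the last pair of bars is the share of all UMIs. Cxcl1, Cxcl2 and Cxcl5 lay below the share of all UMIs in both libraries (45.0%, 70.3% and 71.6% against 76.7% with IL-1β), and Cxcl3, Cxcl15 and Pf4 lay above it.

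Droplets also take up free RNA from other cells, so each minor source was read against genes of the other lineage. In stromal cells, 8 AT2 markers were found at a median of 4.42% of their epithelial level in the control (lowest 3.56%, highest 35.2%). With IL-1β the median was 7.76% (lowest 7.06%, highest 24.7%). Cxcl15 was at 3.96% (3.83 to 4.09) and 6.53% (6.30 to 6.77), and Cxcl3 at 2.11% (0.432 to 6.26) and 8.504% (5.53 to 12.5). These stromal levels were close to or below the marker medians, and their origin was not tested. Pf4 was at 9.07% (5.54 to 14.1) and 9.62% (6.99 to 12.9), of which the second holds the marker median. Both Pf4 values lay inside the range of the 8 markers, whose upper end in the control came from Cebpa (35.2%) and Etv5 (20.7%). In the control, Sftpc, Sftpb, Sftpa1, Lamp3 and Slc34a2 were at 3.56% to 4.46%, below the Pf4 interval. Of the 21 control stromal Pf4 UMIs, 7 lay in 4 cells with macrophage markers, described below. The stromal ratio of Cxcl3 given above therefore compares levels near those of AT2 markers in stromal cells. For Pf4 this holds with IL-1β, whereas its control level stood above the AT2 genes just named.

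In epithelial cells, the stromal markers Col1a1, Col1a2, Col3a1, Pdgfra and Pdgfrb were at 1.33% to 2.50% of their stromal level in the control and at 1.66% to 2.43% with IL-1β. Cxcl1 was at 12.2% (11.3 to 13.2) and 24.8% (24.0 to 25.7), Cxcl5 at 23.1% (21.6 to 24.8) and 76.8% (73.9 to 79.7), and Cxcl2 at 74.6% (59.8 to 93.0) and 72.1% (66.5 to 78.1). All 3 stood above these 5 markers in both libraries. Of the other 2 genes of the 7-marker list, Vim was at 1.86% and 2.59%, and Sparc at 23.9% and 13.4%, which in the control is above Cxcl1 and close to Cxcl5.

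The class of AT2-lineage cells (AT2-like and cycling) held 985 control and 1934 IL-1β cells. It was mostly the Bex2/Bex4 cluster in the control and the Dmkn/Spink5, Slc26a4/Cd14 and Gstm1/Cp clusters with IL-1β, named by their leading genes. The same 5 members were at least 2-fold higher in the IL-1β library, where 9.8% of 12762 genes were higher and 5.52% lower. Their ratios were 4.78 (4.41 to 5.19) for Cxcl1, 5.43 (4.62 to 6.41) for Cxcl2, 2.91 (2.49 to 3.41) for Cxcl3, 5.38 (5.04 to 5.74) for Cxcl5 and 2.81 (2.49 to 3.19) for Pf4. Cxcl15 was at 8627 and 6165 CPM, a ratio of 0.715 (0.709 to 0.720).

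The alveolar type 1 (AT1)-like class held 298 control cells, mostly of the Spock2/Pmp22 cluster, and 322 IL-1β cells, mostly of the Ndnf/Hopx cluster. The second of these has 2 AT1 markers and 2 markers of damage-associated transient progenitors (DATPs) among its leading genes. Cxcl1 was at 12.1 and 179 CPM, a ratio of 14.8 (11.2 to 20.01), and Cxcl5 at 10.3 and 78.9 CPM, a ratio of 7.70 (5.61 to 10.8). Over alternative processing these ratios ran from 5.70 to 20.7 and from 2.48 to 14.3. Cxcl2 had 2 UMIs in the control and 294 UMIs with IL-1β, a ratio of 144 (39.5 to 1194). Pf4 had 8 and 33 UMIs, a ratio of 4.04 (1.83 to 10.1), and Cxcl3 had 1 and 12 UMIs, too few to be counted. So 4 members were at least 2-fold higher, where 5.3% of 10876 genes were and 4.62% were lower. This count was 2 with Louvain clustering, 2 with the members kept among the clustering genes and 1 with mixed droplets removed, and of 18 alternatives Cxcl2 gave no value in 6 and Pf4 in 3. Cxcl15 was at 1420 and 897 CPM, a ratio of 0.632 (0.607 to 0.658), which ran from 0.235 to 2.37 over alternative clusterings and so has no settled direction.

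Within the libraries, Cxcl1 was 3.73-fold (2.81 to 5.05) higher in AT2-lineage than in AT1-like cells in the control, and 1.205-fold (1.12 to 1.301) with IL-1β. For Cxcl2 the ratio was 24.3 (6.64 to 203) in the control, with 2 UMIs on the AT1-like side, and 0.919 (0.810 to 1.05) with IL-1β, an interval that holds 1. Cxcl5 stayed 4.76-fold (4.27 to 5.32) higher in AT2-lineage cells with IL-1β. In IL-1β AT1-like cells Cxcl3, Pf4 and Cxcl15 were at 6.99%, 12.5% and 14.6% of their AT2-lineage level and Cxcl5 at 21.0%, where the AT2 genes Sftpb, Sftpc and Lamp3 were at 12.5%, 22.8% and 29.7%. Cxcl15 and Cxcl5 thus lay inside the range of these 3 AT2 genes and Cxcl3 below it, Pf4 was close to the lowest, and Cxcl1 (83.0%) and Cxcl2 (109%) lay above the range.

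In control AT1-like cells Cxcl1 and Cxcl5 were at 3.93% (2.93 to 5.16) and 4.21% (3.05 to 5.66) of their stromal level. The 5 stromal markers Col1a1, Col1a2, Col3a1, Pdgfra and Pdgfrb were at 1.27% to 2.47% in the same cells. These 5 do not stand for the whole list of 7, which also holds Sparc and Vim. All 7 summed to 3047 CPM in control AT1-like cells and to 9478 CPM in control stromal cells. In the AT1-like cells the highest of the 5, Col3a1, was at 41.2 CPM. The origin of the Cxcl1 and Cxcl5 UMIs in these cells was not tested.

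**Figure D3:**
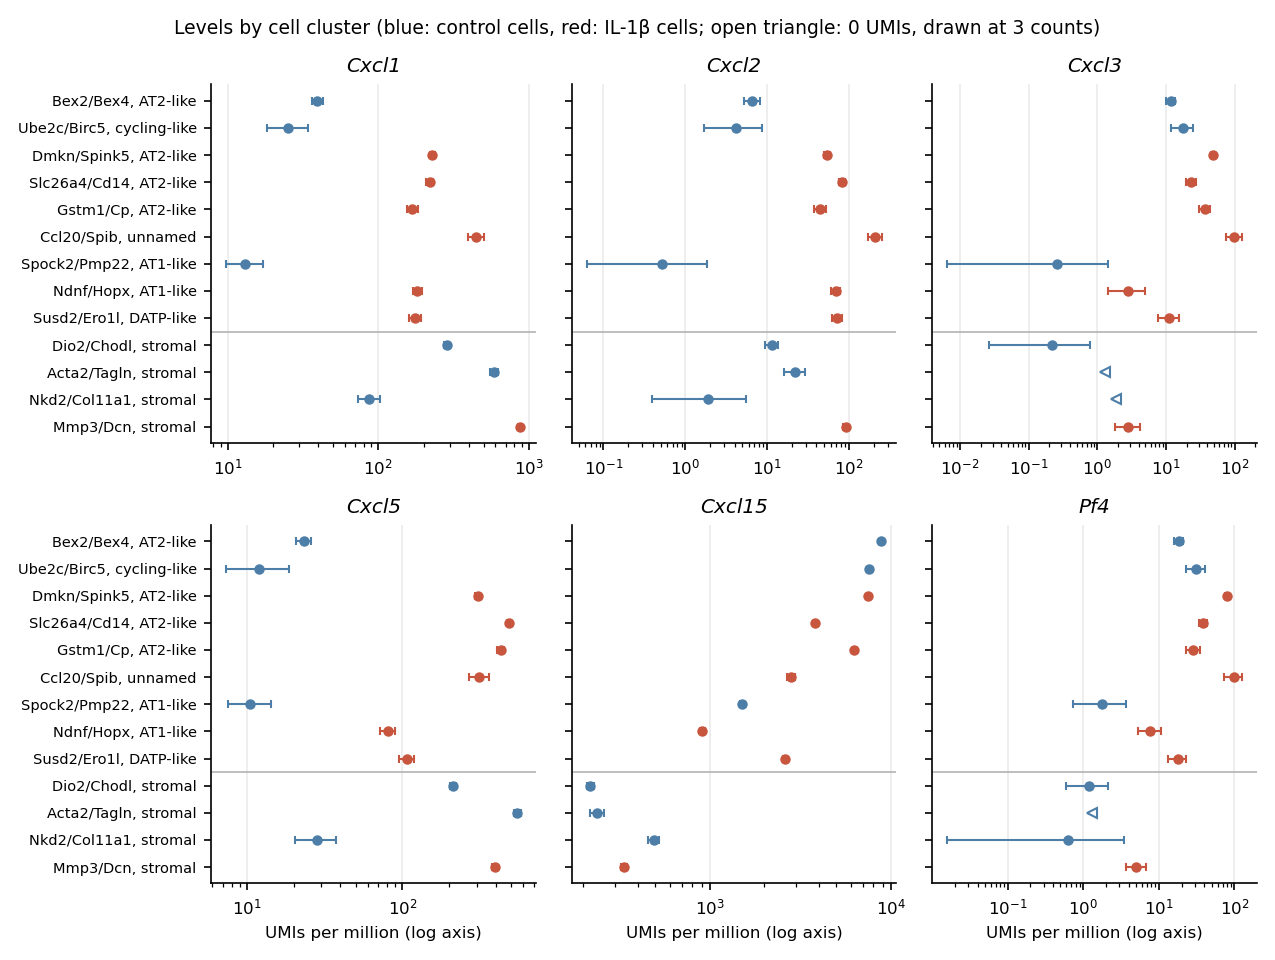
Level of each chemokine in CPM (log axis) in each cluster and library with at least 30 cells, control in blue and IL-1β in red, with exact 95% counting intervals; epithelial clusters are above the grey line and stromal clusters below it, and an open triangle marks 0 UMIs. The 35 Ccl20/Spib cells had the highest Cxcl2 (209 CPM), Cxcl3 (99.3 CPM) and Pf4 (97.5 CPM), and the Mmp3/Dcn stromal cells the highest Cxcl1 (868 CPM). For Pf4 the interval of the Ccl20/Spib cells overlapped that of the Dmkn/Spink5 cells.

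Clusters were formed without the members as clustering genes, and 13 groups of cluster and library had at least 30 cells. For Cxcl1, IL-1β stromal cells of the Mmp3/Dcn cluster came first (868 CPM, 849 to 888). Control stromal cells of the Acta2/Tagln cluster (587 CPM), the Ccl20/Spib epithelial cells (446 CPM) and control Dio2/Chodl stromal cells (285 CPM) came next. The IL-1β epithelial clusters followed at 168 to 229 CPM, of which Dmkn/Spink5 and Slc26a4/Cd14 (219 CPM) had overlapping intervals, as had Ndnf/Hopx, Susd2/Ero1l and Gstm1/Cp. In the Susd2/Ero1l cluster 1 cell held 175 of the 534 Cxcl1 UMIs, and the level without it was 119 CPM. The control epithelial clusters came last, at 13.1 to 39.5 CPM. For Cxcl1, each IL-1β epithelial group of at least 30 cells thus lay above each such control epithelial group.

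For Cxcl2, Ccl20/Spib cells were at 209 CPM (173 to 251) and stood apart. The other 6 IL-1β groups were at 44.4 to 91.9 CPM, and the first 4 of them followed each other with overlapping intervals. The control groups reached 21.9 CPM in the Acta2/Tagln cluster and 0.514 CPM (2 UMIs) in the Spock2/Pmp22 AT1-like cluster.

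For Cxcl5 a control group led: the Acta2/Tagln stromal cluster was at 548 CPM (518 to 579). This lead rested on 1 of the 111 cells, which held 371 of the 1250 UMIs, and without that cell the level was 391.3 CPM. It was followed by the IL-1β AT2-like clusters Slc26a4/Cd14 (483 CPM, and 433 CPM without its own highest cell, so first when each group is taken without its highest cell) and Gstm1/Cp (429.8 CPM), and by the IL-1β Mmp3/Dcn stromal cells (391 CPM). The DATP-like Susd2/Ero1l cluster was at 107 CPM and the Ndnf/Hopx AT1-like cluster at 80.3 CPM. In the Slc26a4/Cd14 cluster Cxcl5 is itself the gene with the highest fold over other epithelial cells, although it was left out of the clustering.

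The control stromal clusters differed widely. Cxcl1 and Cxcl5 were at 587 and 548 CPM in the Acta2/Tagln cluster of 111 cells, at 285 and 213 CPM in the Dio2/Chodl cluster of 586 cells, and at 87.0 and 28.2 CPM in the Nkd2/Col11a1 cluster of 77 cells. The 17 IL-1β cells of the Acta2/Tagln cluster, the only stromal cluster with more than 10 cells of each library, were at 552 CPM for Cxcl1 and 556 CPM for Cxcl5. Their intervals (489 to 621 and 493 to 625) overlapped those of the control cells of the cluster, but 1 of the 17 cells held 135 of the 277 Cxcl1 UMIs and 1 held 150 of the 279 Cxcl5 UMIs. The stromal ratios therefore set Dio2/Chodl cells, which make up most control stromal cells, against Mmp3/Dcn cells, which make up most with IL-1β.

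Cxcl3 and Pf4 shared the 2 leading groups. For Pf4 the intervals of the Ccl20/Spib cells (73.3 to 127 CPM) and the Dmkn/Spink5 cells (74.5 to 84.3 CPM) overlapped. Behind Ccl20/Spib cells, Cxcl3 was at 48.6 CPM and Pf4 at 79.3 CPM in the Dmkn/Spink5 AT2-like cluster. In the Gstm1/Cp cluster they were at 36.5 and 28.6 CPM, the third place for Cxcl3 and the fifth for Pf4. Both were lower than in Dmkn/Spink5 cells in the Slc26a4/Cd14 cluster (23.4 and 38.0 CPM), the DATP-like cluster (11.2 and 17.8 CPM) and the Ndnf/Hopx cluster (2.81 and 7.73 CPM). The control cycling cluster (17.5 and 30.7 CPM) and the control Bex2/Bex4 cluster (11.7 and 18.3 CPM) lay between the first 2 of these, and their intervals overlapped those of the Slc26a4/Cd14 and the DATP-like cluster, respectively. Cxcl15 ranked differently, with the control Bex2/Bex4 AT2-like cells first at 8833 CPM and the control cycling cells (7552 CPM) and IL-1β Dmkn/Spink5 cells (7460 CPM, 7412 to 7507) next with overlapping intervals. The Slc26a4/Cd14 cluster was at 3823 CPM, the DATP-like cluster at 2599.9 CPM and the AT1-like clusters at 1502 CPM in the control and 908 CPM with IL-1β.

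A small number of cells carried much of the control epithelial signal. Of 1284 control epithelial cells, 19 (1.48%) fell in clusters made up almost wholly of IL-1β cells. They held 716 of the 1078 control epithelial Cxcl5 UMIs (66.4%), 76 of the 170 Cxcl2 UMIs (44.7%), 120 of the 722 Cxcl1 UMIs (16.6%) and 32 of the 326 Pf4 UMIs (9.82%). Of the Cxcl5 UMIs, 666 were in 12 cells of the Slc26a4/Cd14 cluster, of which 5 had any, and 1 cell had 240. Another cell held 63 of the Cxcl2 UMIs. Without these 19 cells the control epithelial level was 19.2 CPM for Cxcl5, 4.99 CPM for Cxcl2 and 32.0 CPM for Cxcl1. When all 39 cells that lay in clusters of the other library were left out, the epithelial IL-1β over control ratio was 16.0 for Cxcl5, 13.2 for Cxcl2 and 6.62 for Cxcl1, the AT2-lineage ratio was 17.2 for Cxcl5 and 9.67 for Cxcl2, and stromal cells held Cxcl2 at over 2-fold the epithelial level in the control (epithelial over stromal ratio 0.414). Of the 19 barcode sequences, 0 are among the 11 that the libraries share, and the origin of the signal was not tested.

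To compare shares of cells, every cell was thinned to 4600 UMIs, which left out none. Median depths before thinning were 13922 and 11293 UMIs in control and IL-1β epithelial cells and 15735 and 14849 UMIs in stromal cells. Cxcl1 was found in 9.74% of control (8.17 to 11.5) and 40.5% of IL-1β epithelial cells (38.6 to 42.4), and in 32.5% and 60% of stromal cells. Cxcl5 was found in 6.00% and 32.8% of epithelial cells and in 19.8% and 43.6% of stromal cells. For Cxcl2 the shares were 1.17% and 12.7% in epithelial and 2.63% and 13.5% in stromal cells. Before thinning, 22.0% and 61.4% of epithelial cells had a Cxcl1 UMI, 15.6% and 48.7% a Cxcl5 UMI and 2.57% and 21.1% a Cxcl2 UMI. In control AT1-like cells, the lowest class, Cxcl1 and Cxcl5 were each found in 3.69% of thinned cells (1.86 to 6.51).

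Pf4 was found in 5.92% of control (4.69 to 7.35) and 16.0% of IL-1β epithelial cells (14.6 to 17.5) and Cxcl3 in 2.18% and 8.36%. In stromal cells these shares were 0.502% and 2.32% for Pf4 and 1.26% with IL-1β for Cxcl3, which was found in 0 of 797 control cells (0 to 0.462). The limit that a count of 0 allows, 3 cells of these 797, is 0.376% of cells with a UMI. Cxcl15 was found in 95.2% and 98.4% of epithelial cells, and also in 63.4% and 68.8% of stromal cells, where the AT2 gene Sftpb was found in 80.1% and 86.1%. A share for so abundant a gene thus says little about its source. Before thinning the shares were 16.4% and 31.6% of epithelial cells for Pf4, 6.46% and 16.3% for Cxcl3 and 98.2% and 99.7% for Cxcl15. For scale, Col1a1, at a higher stromal level than Cxcl1, was found in 10.8% and 10.96% of thinned epithelial cells.

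**Figure D4:**
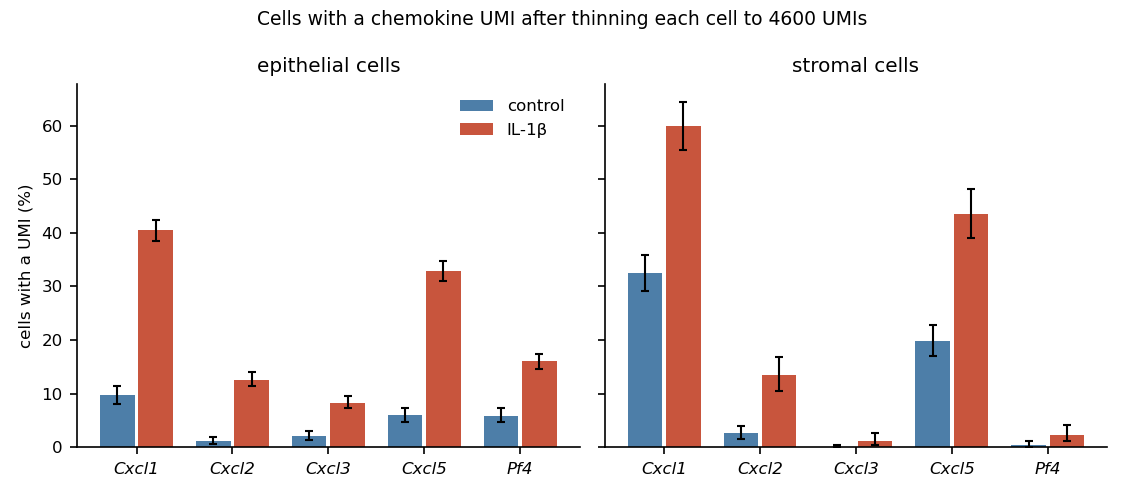
Percentage of epithelial (left) and stromal (right) cells with at least 1 UMI of each chemokine after every cell was thinned to 4600 UMIs, control in blue and IL-1β in red, with exact 95% binomial intervals. In epithelial cells Cxcl1 was at 9.74% and 40.5% and Cxcl5 at 6.00% and 32.8%; Cxcl15, found in nearly all epithelial cells, is left out.

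Genes found together were also counted after thinning, and all shares in this paragraph are of thinned cells. A gene not found in a thinned cell may have had UMIs there before thinning. The share of epithelial cells with none of Cxcl1, Cxcl2, Cxcl3 and Cxcl5 was 83.8% without and 38.0% with IL-1β. With IL-1β, 17.8% of epithelial cells had 2 of the 4, 5.88% had 3 and 0.929% had all 4. Among stromal cells, 58.1% and 27.2% had none and 11.3% and 28.6% had 2. The genes were found together more often in some pairs than in others. Of IL-1β stromal cells, 20.7% (16.1 to 25.9) of those with Cxcl1 and 2.63% (0.860 to 6.03) of those without it had Cxcl2. Of IL-1β epithelial cells, 59.3% (52.4 to 65.9) of those with Cxcl3 and 30.4% (28.6 to 32.3) of those without it had Cxcl5. Pf4 was found in 27.3% (21.5 to 33.8) of IL-1β epithelial cells with Cxcl3 and in 15% (13.6 to 16.5) of those without. Cells of a cluster share their type, so these shares describe the cells and are no test.

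Other cell types that make these chemokines were looked for by their markers. In the control, 4 stromal-cluster cells carried at least 8 of 10 macrophage markers, and no other control cell had more than 3. They held 7 of the 21 stromal Pf4 UMIs of the control but 2 of 4194 Cxcl1 UMIs and no Cxcl5 UMI. No IL-1β cell had more than 2 of these markers. In IL-1β epithelial cells 6 of the 10 macrophage markers had any UMI and summed to 42.2 CPM, of which Cd68 gave 40.5 CPM, and Adgre1, C1qa, C1qb and Marco were at 0. In control epithelial cells all 10 had a UMI and summed to 16.6 CPM. Of 7 neutrophil markers, 4 had a UMI in the epithelial cells of each library, summing to 1.36 CPM in the control and 5.24 CPM with IL-1β. In stromal cells 3 of the 7 had a UMI in each library and summed to 15.4 and 59.1 CPM, of which S100a8 gave 14.7 and 58.9 CPM, and S100a9, Mpo and Ly6g were at 0 in both. The 4 endothelial markers summed to 2.58 and 16.0 CPM in stromal cells. The part of these cell types in the stromal results was not tested.

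The genes that receive, accompany or limit these signals were described from lists. Of 8 receptors and decoy receptors, none reached 20 UMIs in epithelial cells. Cxcr2, the receptor of Cxcl1, Cxcl2, Cxcl3 and Cxcl5, had 24 UMIs over all barcodes of both libraries and Cxcr1 had 0. In stromal cells 3 of the list were measured, of which 1 was higher and 1 lower, where 5.28% of all genes were higher and 13.4% lower. Ackr3, a scavenging receptor, was at 19.8 and 1.69 CPM (269 and 16 UMIs), and Ackr1, which binds inflammatory chemokines without signaling, had 0 and 59 UMIs. Ackr4 was at 3.46 and 4.23 CPM.

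Of 15 other recruitment signals, 14 were measured in epithelial cells, and 10 were at least 2-fold higher and 0 lower with IL-1β (median log2 ratio 1.46). Of all genes 8.47% were higher there. In stromal cells 9 of 13 were higher and 1 lower (median log2 ratio 1.54), where 5.28% of all genes were higher and 13.4% lower. AT2-lineage cells had 8 of 14 higher (9.8% of all genes) and AT1-like cells 9 of 13 (5.3% of all genes), with none lower in either class. Lcn2, an iron-binding antimicrobial protein, was at 2902 and 15963 CPM in epithelial cells and 1364 and 9258 CPM in stromal cells. Saa3, an acute-phase apolipoprotein, was at 539 and 3186 CPM in epithelial and 10031 and 60438 CPM in stromal cells. Ccl2, a monocyte chemokine, was at 22.4 and 69.8 CPM in epithelial and 840.2 and 2123 CPM in stromal cells. Cxcl12, a chemokine of stromal cells, was at 1224 and 682 CPM in stromal cells, a ratio of 0.557. The 1 gene lower in stromal cells, named after its values were seen, was Cxcl10, an interferon-responsive chemokine of T cells, at 43.3 and 8.04 CPM there and at 1.46 and 8.07 CPM in epithelial cells. Csf3, the growth factor of neutrophils, was chosen in the same way and was at 1.52 and 7.81 CPM in epithelial and 38.3 and 241 CPM in stromal cells. This list was not read against free RNA from the other lineage. Ccl2 and Csf3 stood far higher in stromal cells, and the origin of their UMIs in epithelial cells was not tested. The epithelial counts of genes above take all UMIs found in these cells, whatever their source.

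For the IL-1 receptor and NF-κB list the values are given by lineage, with no test of the difference between lineages. In epithelial cells 7 of 17 measured genes were higher and 0 lower (median log2 ratio 0.54), where 8.47% of all genes were higher. In AT2-lineage cells 6 of 17 were higher (9.8% of all genes). In AT1-like cells 6 of 16 were higher (5.3% of all genes) and 1 lower (the receptor subunit gene Il1rap, with 20 and 7 UMIs). In stromal cells 0 of 17 were past 2-fold in either direction (median log2 ratio −0.15, against −0.33 for all genes). There 5.28% of all genes were higher and 13.4% lower. For a list of 17 genes, 0 higher is near the first of these shares. Nfkbia, an inhibitor and immediate target of NF-κB, was at 94.9 and 345 CPM in epithelial cells, a ratio of 3.63 (3.46 to 3.82), and at 242 and 248 CPM in stromal cells, a ratio of 1.02 (0.968 to 1.08). Nfkb1 was at 47.9 and 88.3 CPM in epithelial and 106 and 116 CPM in stromal cells. Nfkbiz was at 45.5 and 52.2 CPM in epithelial and 101 and 75.6 CPM in stromal cells, and the kinase gene Irak1 at 53.1 and 46.1 CPM and at 65.5 and 45.5 CPM. The receptor gene Il1r1 was at 4.86 and 4.56 CPM in epithelial cells and at 39.4 and 39.7 CPM in stromal cells, so its level was higher in stromal cells and within 2-fold between the libraries in each lineage.

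Of 6 factors that act on AU-rich or stem-loop elements of mRNA, 2 were higher in epithelial, AT2-lineage and AT1-like cells, and 1 was lower in AT1-like cells (Zfp36, at 78.3 and 32.4 CPM). Of all genes 8.47%, 9.8% and 5.3% were higher in these classes, and 4.62% were lower in AT1-like cells. In stromal cells 0 were higher and 2 lower, where 5.28% of 12843 genes were higher and 13.4% lower. The stromal median log2 ratio was −0.65 for these 6 genes and −0.33 for all genes, so part of their lower levels is shared with genes at large. Zfp36, which speeds the decay of AU-rich mRNAs, was at 159 and 47.9 CPM in stromal cells, a ratio of 0.302 (0.272 to 0.334), and at 80.7 and 57.3 CPM in epithelial cells. Its relative Zfp36l1 was at 551 and 247 CPM in stromal cells, a ratio of 0.447 (0.427 to 0.469), and at 232 and 265 CPM in epithelial cells. Zfp36l2 was at 131 and 76.6 CPM and Elavl1, which stabilizes such mRNAs, at 77.9 and 54.0 CPM in stromal cells. The 2 higher in epithelial cells, named after their values were seen, were Zc3h12a (6.06 and 46.2 CPM), which encodes an RNase of inflammatory mRNAs, and Arid5a (5.02 and 13.7 CPM).

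Genes whose levels ran most like those of a member were found over 11 groups of class and library, among 10532 genes, by Pearson's r of log2(CPM + 10). The groups share libraries and depth, so r is a description. For Cxcl1 these were Cxcl5 (0.92), Saa3 (0.92) and Synj2 (0.91). For Cxcl5 they were Cxcl1 (0.92), Synj2 (0.85) and Hif1a (0.84). For Cxcl2 they were C2 (0.94), Tnfrsf9 (0.92) and Igsf8 (0.92). For Cxcl3 they were Bcl2a1d (0.99), Pf4 (0.98) and St8sia6 (0.97), and for Pf4 Cxcl3 (0.98), Bcl2a1b (0.97) and Bcl2a1d (0.97). The last 2 are near-identical copies, so their counts are uncertain. For Cxcl15 they were Slco4c1, Cd36 and Sftpb (each 0.99). Cxcl1 and Cxcl3 had an r of 0.11, and Cxcl1 and Cxcl15 one of −0.53.

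The ratios are given along the gene cluster, with no test of position. The neighbours Cxcl3 and Cxcl15 had epithelial ratios of 3.09 and 0.716, and the neighbours Pf4 and Cxcl3 had 2.90 and 3.09, whereas Cxcl5 at one end and Cxcl1 and Cxcl2 at the other had 5.44, 5.59 and 7.42. The members with the kB site shown above, Cxcl1, Cxcl2 and Cxcl3, had epithelial ratios of 3.09 to 7.42. Cxcl15 and Pf4 without it had 0.716 and 2.90, and no window was found for Cxcl5. The intervals of Cxcl3 (2.65 to 3.62) and Pf4 (2.57 to 3.28) overlapped. In stromal cells the ratios were 2.75, 7.67 and 12.5 for the members with the site and 1.18 and 3.08 for Cxcl15 and Pf4, so Pf4 lay above Cxcl1 there. A link between site and ratio was not tested. With 6 genes this is a description.

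**Figure D5:**
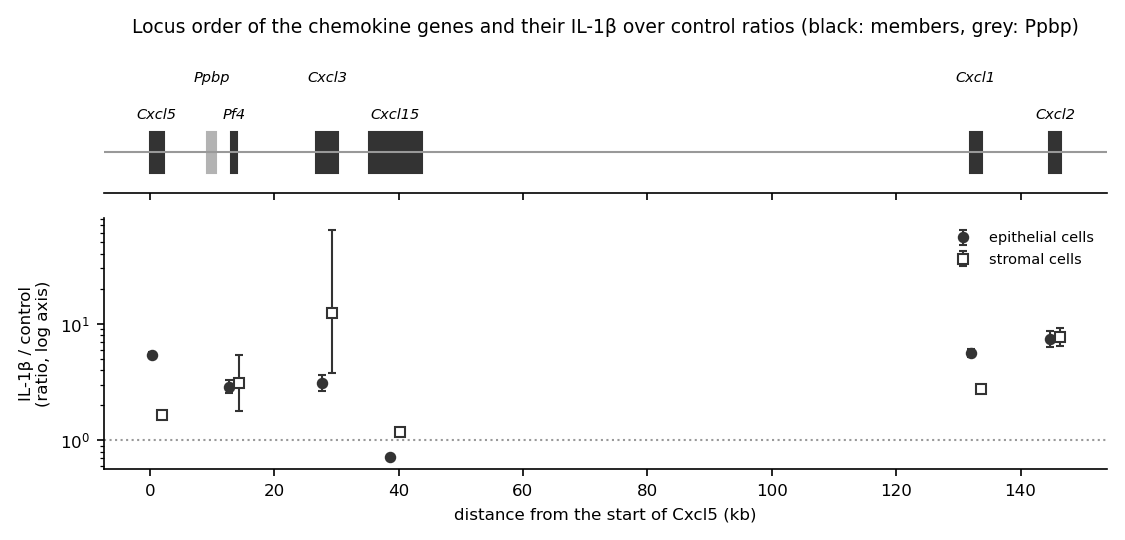
Top, the protein-coding genes of the cluster by distance from the start of Cxcl5 in kb (black, the members; grey, Ppbp); bottom, the IL-1β over control ratio (log axis) of each member in epithelial cells (filled circles) and stromal cells (open squares) with exact 95% intervals, and a dotted line at 1. Cxcl15 was the only member with an epithelial ratio under 1 (0.716), and the stromal ratio of Cxcl3 (12.5) has a wide interval because the control had 3 UMIs.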

How the data were processed

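The authors deposited raw UMI counts per gene and cell barcode, made per the methods with Cell Ranger on GRCm38; the submitters' processing notes also name mm9 and Scanpy 1.3.6. Barcodes with over 500 and under 7000 genes and over 2000 UMIs were kept. Scrublet marked 3 of 5142 cells (0.0583%), too few to count as removal, so doublets remain. After scaling each cell to 10000 counts and taking logs, variable genes without the members and the lists were reduced to 50 principal components, joined over 15 neighbors and clustered with the Leiden algorithm at a resolution of 1 (scanpy 1.11.5, leidenalg 0.10.2, Python 3.11.15). Clusters were split into epithelial and stromal by markers. An epithelial cluster was named from marker lists where at least 3 markers were in at least 50% of its cells, by a rule set after the clusters had been seen; stromal clusters are called by leading genes. CPM, Poisson and Clopper-Pearson 95% intervals were computed from summed counts with scipy 1.17.1. The interval of an epithelial ratio over a stromal ratio was a normal approximation on the log scale. The members and lists were chosen with earlier results of these data known. In each list the 4 genes with the most UMIs are named, with any a result turns on, and for each member the 3 genes with the highest r. Alternatives varied the cell filter, doublets, mixed droplets, resolution, algorithm, clustering genes, joint clustering, seed, scaling, weighting, depth and count minimum. Promoters are from RefSeq, and positions and the longest 3′UTR of each gene from GENCODE vM21.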

Additional observations from a re-analysis of the deposited data

How the results depend on the processing

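No paired analysis was possible because each group is 1 library. Over 18 alternatives, 3 of them chosen after seeing the data (mixed droplets judged without Sparc and Vim, macrophage-marked cells removed, cells in clusters of the other library removed), 209 of 216 counts of members past 2-fold stayed within 1.5 times and 7 moved. In AT1-like cells the count higher with IL-1β was 2 with Louvain clustering, 2 with the members kept among the clustering genes and 1 with mixed droplets removed, and under each of these 3 the count lower was 1 (Cxcl15). In those 3 settings Cxcl2, Cxcl3 and Pf4 gave no value because a library had 0 of their UMIs in AT1-like cells. In stromal cells thinned to 1 depth the count higher was 2. Of 633 ratios of single members none that was past 2-fold changed direction, and 146 moved outside their counting interval. The cause was not tested. Depth limits the control stromal values of Cxcl3 and Pf4 and the control AT1-like values of Cxcl2, Cxcl3 and Pf4, which rest on 1 to 21 UMIs.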
